A study of Mus musculus with 20 samples.

Results

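The transcriptional branch of the Hippo pathway was followed through 10 genes, out of 21509 protein-coding genes measured by RNA-seq in mouse epididymal cells. The genes were taken by symbol from both deposited expression tables, with every library kept, by a rule that uses no measured value. They are the coactivators Yap1 and Wwtr1, the DNA-binding partners Tead1 and Tead2, the target genes Ccn1, Ccn2 and Ankrd1, and Amotl2, Lats2 and Ajuba, which encode regulators of the same pathway. After 3 h of flow, the mRNA of Ccn2 and Ccn1 rose, while the mRNAs of Yap1, Wwtr1, Tead1 and Tead2 did not pass the test. Ankrd1 was the higher in the flow library of each of the 6 pairs that share a number. It was not called over all 12 libraries without a block, and was called with the replicate number as a block. None of the 10 genes was called after silencing of Ift88, against 0.223% of all genes tested.

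YAP1 and TAZ, the product of Wwtr1, are coactivators that have no DNA-binding domain of their own. When the kinases LATS1 and LATS2 phosphorylate them they are kept in the cytoplasm or degraded, and when that phosphorylation falls they enter the nucleus and bind the TEAD factors, which recognise short promoter and enhancer motifs. Stretch, a stiff substrate, cell spreading and fluid flow are known inputs to this switch, which acts on the proteins and is therefore not read directly from the mRNA of Yap1 or Wwtr1. Ccn1 (formerly Cyr61), Ccn2 (formerly Ctgf) and Ankrd1 are widely used as readouts of YAP/TAZ activity, although serum response factor and other stimuli also induce them. AMOTL2 holds YAP at junctions and LATS2 phosphorylates it, and the genes of both are themselves known YAP/TAZ targets, so they are regarded as negative feedback.

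All libraries came from DC2, an immortalised line derived from principal cells of the distal caput epididymis of the mouse. The flow group (6 libraries) spent 3 h under laminar flow that gave a shear stress of 1 dyn/cm2, and the static group (6 libraries) was kept without flow for the same time. In the other experiment, cells received Ift88 siRNA (4 libraries) or control siRNA (4 libraries). Ift88 encodes an intraflagellar transport protein needed to build the primary cilium. The study reports fewer ciliated cells and shorter cilia after this silencing, with cilia kept on part of the cells. All cells of the flow experiment were first held in low serum on fibronectin in microchannels, and the siRNA was given as a mixture of several sequences against Ift88, according to the study's methods. The study describes both siRNA groups as under flow, which the labels do not state for each library. DC2 is a single line and no sample came from an animal.

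Values are TPM, an abundance scaled to a fixed total per library and corrected for transcript length, so that levels can be compared between genes within a library. TPM hold no read total and the depth behind each value is unknown. A gene was called when its adjusted p in limma was under 0.05 and its change exceeded 1.5-fold, both on the log2(TPM + 1) scale. The flow and static libraries share replicate numbers, and same-numbered libraries deviated together, so a fit blocked on the replicate number is given beside the unblocked one where it changes a call. The first principal component held 34.4% of the variance of the flow table and separated replicates 1 to 3 from replicates 4 to 6, and values within each of these sets are given below. The library titled flow, sample 6 has a treatment label that reads static. It was counted as flow replicate 6 by its title and its description, which ends in FL like those of the other flow libraries. Its Ccn1, Ccn2 and Ankrd1 were the highest of all 12 libraries, which is no independent check of the label for these genes. Of 5 epithelial markers, Krt18 averaged between 47.7 and 145 TPM in the 4 groups and Krt19 lay between 5.32 and 26.0 TPM in every library, but Epcam, Krt8 and Cdh1 reached at most 0.33, 1.17 and 1.73 TPM in any library. The principal cell markers Lcn8, Crisp1 and Cst11 were at 0 in every flow and static library and Aqp9 averaged at most 0.28 TPM. The summed markers of fibroblasts (4 genes), endothelium (3 genes) and leukocytes (3 genes) were at most 5.90, 1.74 and 1.37 TPM in any library.

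The mRNAs of the coactivators were not called as changed by flow. In the 6 flow libraries, Yap1 (chr9:7931999-8004596, minus strand, GRCm38) ranged from 51.1 to 66.3 TPM with a median of 57.5. In the 6 static libraries it ranged from 50.9 to 64.0 TPM with a median of 58.1. The groups overlapped almost completely, and the log2 difference was 0.01 (SE 0.07, 95% interval -0.15 to 0.17, adjusted p in limma 0.998). Wwtr1 (chr3:57455649-57575910, minus strand) ranged from 68.9 to 96.9 TPM under flow, median 73.5, and from 61.0 to 91.0 TPM in static cells, median 73.3. Its log2 difference was 0.06 (SE 0.11, interval -0.17 to 0.28), higher under flow in 4 of 6 pairs, and the spread followed the replicate sets more than the treatment, with the 6 libraries of replicates 4 to 6 at 74.9 TPM or more and the others at 71.7 TPM or less. TAZ mRNA exceeded YAP mRNA in every flow and static library, with a Wwtr1 to Yap1 ratio of 1.33 ± 0.14 (SD, n = 6) under flow and 1.29 ± 0.12 (SD, n = 6) in static cells.

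The TEAD factors, which bring the coactivators to DNA, were not called either. Tead1 (chr7:112679318-112906807, plus strand) lay between 26.8 and 40.7 TPM under flow, median 37.4, and between 27.7 and 36.8 TPM in static cells, median 33.6. The log2 difference was 0.12 (SE 0.11, interval -0.11 to 0.36), with 4 of 6 pairs higher under flow. Tead2 (chr7:45215753-45233644, plus strand) lay between 41.1 and 78.0 TPM under flow, median 61.0, and between 58.5 and 69.1 TPM in static cells, median 62.8. The flow libraries thus spread wider than the static ones on both sides, and the log2 difference was -0.11 (SE 0.12, interval -0.37 to 0.15), with 2 of 6 pairs higher. Tead2 was the most abundant of the 4 Tead genes, at 53.8% of their summed TPM in static cells and 50.6% under flow, followed by Tead1 at 27.9% and 31.0%. The less abundant Tead3 and Tead4 gave 10.1% and 8.22% of the sum in static cells, and the sum itself was 118 ± 9.30 TPM without flow and 117 ± 7.94 TPM with it (SD, n = 6 each).

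**Figure D1:**
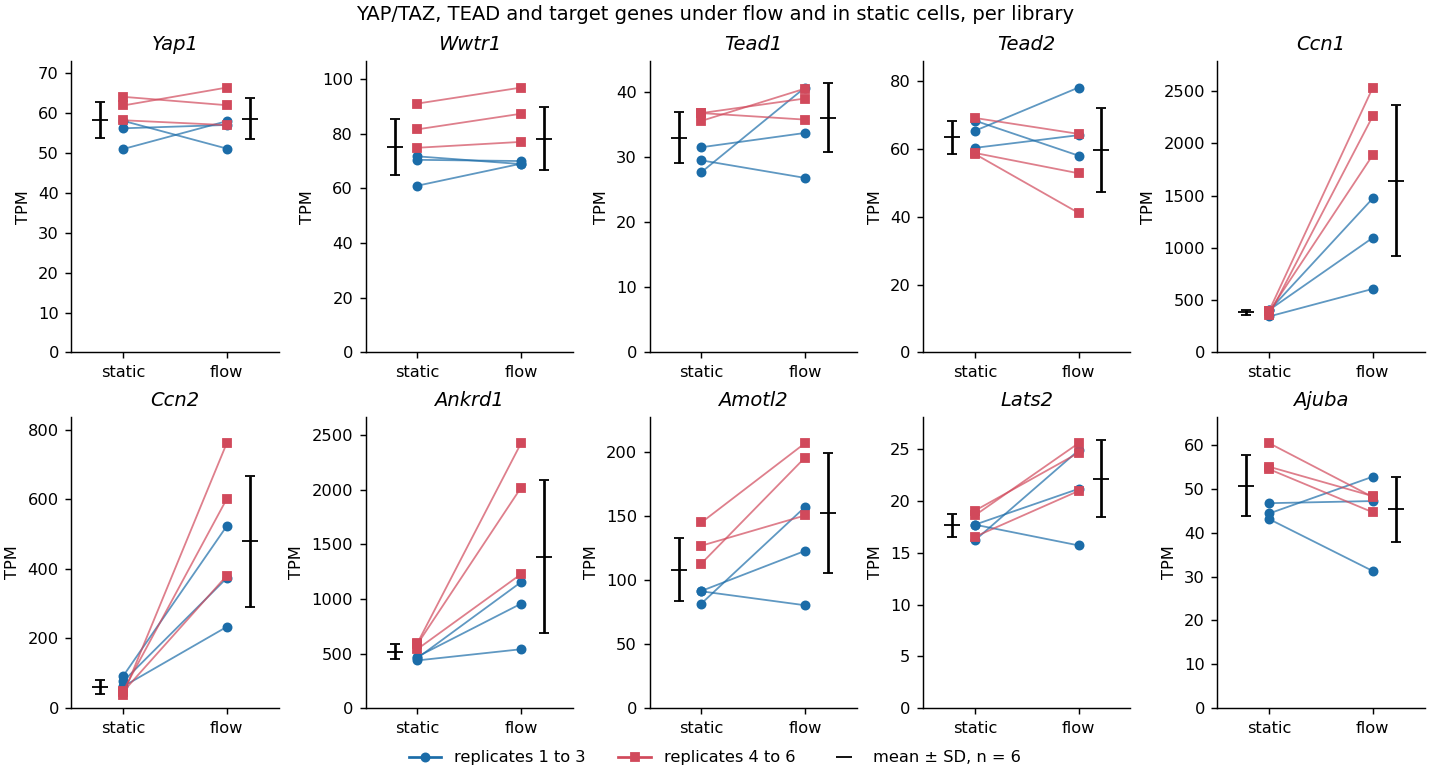
TPM of the 10 genes in each of the 12 libraries of the flow experiment. Lines join same-numbered static and flow libraries (circles, replicates 1 to 3, squares, replicates 4 to 6), and black bars give the mean ± SD of 6. Every flow library lies above every static library for Ccn1 and Ccn2, all 6 lines rise for Ankrd1, and the panels of Yap1, Wwtr1, Tead1 and Tead2 hold lines of both directions.

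The target genes moved by far larger amounts. Of the 10 genes, 2 (Ccn1 and Ccn2) were called higher under flow and none lower, against 0.105% of all 11388 genes tested. With the replicate block 3 of 10 (Ankrd1 added) were called higher, against 0.597% of all genes tested. In every library of either group these 3 genes were expressed, and their summed abundance was 961 ± 65.4 TPM in static cells and 3510 ± 1588 TPM under flow (SD, n = 6 each).

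Ccn2 (chr10:24595442-24598683, plus strand), which encodes connective tissue growth factor, a secreted matricellular protein, gave the largest change of the 10 genes. In static cells it was at 92.2, 62.1, 76.7, 47.3, 49.4 and 39.1 TPM in replicates 1 to 6. Under flow it was at 523, 233, 373, 380, 601 and 761 TPM in the same order. The lowest flow library was above the highest static library by 2.53 times. The means were 479 ± 188 and 61.1 ± 20.1 TPM (SD, n = 6 each), and the log2 fold change was 2.91 (SE 0.26, adjusted p in limma 0.000309), a 7.52-fold change with a 95% interval of 5.08 to 11.1. With the block the adjusted p was 0.000599. In bulk RNA, more cells expressing a gene and more mRNA per cell cannot be told apart.

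Ccn1 (chr3:145646976-145649981, minus strand), which encodes another secreted matricellular protein that binds integrins, was already abundant in static cells. Its static values were 402, 345, 407, 392, 362 and 401 TPM in replicates 1 to 6, a narrow range. Its flow values were 1475, 608, 1098, 1890, 2262 and 2534 TPM. No flow library overlapped the static group, although flow replicate 2 was only 1.49 times above its highest member. The mean rose from 385 ± 25.5 to 1644 ± 726 TPM (SD, n = 6 each), a log2 fold change of 1.95 (SE 0.27, adjusted p in limma 0.0107, and 0.00203 with the block), or 3.86-fold with a 95% interval of 2.58 to 5.76. By mean TPM it stood at rank 357 of all genes in static cells and at rank 92 under flow. The call of Ccn1 was lost with no filter on low TPM (adjusted p in limma 0.0760) and, with the block, without pair 1.

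Ankrd1 (chr19:36111961-36120099, minus strand) encodes an ankyrin-repeat protein first known from heart muscle, which acts at the sarcomere and in the nucleus. It was at 459, 437, 471, 541, 587 and 596 TPM in static replicates 1 to 6. Under flow it was at 1154, 539, 956, 1227, 2019 and 2426 TPM. Flow replicate 2 fell inside the static range and the other 5 flow libraries lay above it. The means were 515 ± 68.8 and 1387 ± 702 TPM (SD, n = 6 each), with a log2 fold change of 1.27 (SE 0.28, adjusted p in limma 0.113), so Ankrd1 was not called without the block. With the block the same change had an SE of 0.17, a 95% interval of 0.89 to 1.65 and an adjusted p of 0.00774, and it was called. The blocked call was lost without pair 1, at 1.26 and an adjusted p in limma of 0.106. Without a block it was called without flow replicate 2, at 1.51 and an adjusted p of 0.00260, and with library weights, at 1.33 and 0.00139.

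Separation of the groups was read against all genes. Of the 10 genes, 2 (Ccn1 and Ccn2) had every flow library above every static library, against 0.492% of all genes tested. In 6 of 6 pairs, 3 of 10 (with Ankrd1) were higher under flow, against 1.98% of all genes tested. The library with conflicting labels bears on all 3. Without flow replicate 6 the log2 fold changes were 2.76 for Ccn2 (adjusted p in limma 0.000299), 1.79 for Ccn1 (0.0189) and 1.08 for Ankrd1 (0.191). Counted as static it lowered them to 2.23, 1.40 and 0.76, and none of the 3 was called. With the block and without pair 6 all 3 were called, at 2.64, 1.81 and 1.12.

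Changes in the 6 pairs showed a common order. The smallest change of each gene was in pair 2, at 1.89 for Ccn2, 0.82 for Ccn1 and 0.30 for Ankrd1 on the log2(TPM + 1) scale. The largest was in pair 6, at 4.25, 2.66 and 2.02. Within every pair Ccn2 changed most and Ankrd1 least. The change of Ccn2 exceeded that of Ccn1 by 0.96 ± 0.35 (SD, n = 6 pairs) and that of Ankrd1 by 1.64 ± 0.39, and the change of Ccn1 exceeded that of Ankrd1 by 0.68 ± 0.25. For each of these 3 differences a two-sided exact sign-flip permutation test over the 6 pairs gave p = 0.031, the smallest that 6 pairs allow, and 0.031 after Benjamini-Hochberg adjustment over the 3. Accordingly, the Ccn1 to Ccn2 abundance ratio was 6.85 ± 2.20 (SD, n = 6) in static cells and 3.41 ± 0.87 (SD, n = 6) under flow. The Ccn1 to Ankrd1 ratio was 0.757 ± 0.104 in static cells and 1.21 ± 0.18 under flow (SD, n = 6 each), so Ankrd1 was the more abundant mRNA in static cells and Ccn1 under flow.

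Both replicate sets showed the rise, at different sizes. In replicates 1 to 3 the ratios of the flow mean to the static mean were 4.89 for Ccn2, 2.76 for Ccn1 and 1.94 for Ankrd1. In replicates 4 to 6 they were 12.8, 5.79 and 3.29. For Ccn2 both ends of the ratio differed, since static cells held 77.0 ± 15.0 TPM in replicates 1 to 3 and 45.2 ± 5.44 TPM in replicates 4 to 6 (SD, n = 3 each). For Ccn1 the static level was 384 TPM in the former set and 385 TPM in the latter, and flow cells differed, at 1060 ± 435 and 2229 ± 324 TPM. Without the block, 0 of 10 genes were called higher in replicates 1 to 3 alone, against 0.0443% of all genes, and 5 of all 11298 genes tested were called. In that set Ccn2 had an adjusted p in limma of 0.0531 and Ccn1 of 0.360. In replicates 4 to 6 alone, 3 of 10 (Ccn1, Ccn2 and Ankrd1) were called, against 0.49% of all genes. With the block these 3 were called in both sets, against 0.434% of all genes in replicates 1 to 3 and 1.11% in replicates 4 to 6. The size of the difference between the sets was not tested, and the meaning of the sets is not given by the labels.

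**Figure D2:**
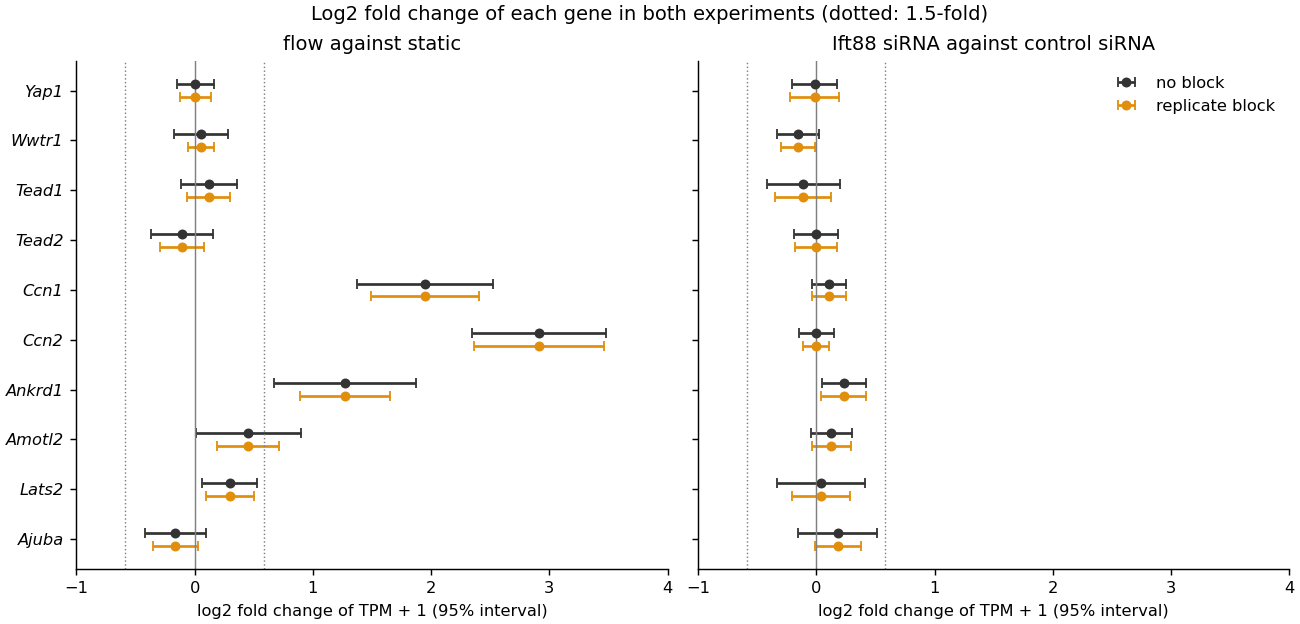
Log2 fold change of TPM + 1 with its 95% interval for the 10 genes, flow against static on the left and Ift88 siRNA against control siRNA on the right, without a block in grey and with the replicate block in orange, with 1.5-fold marked by dotted lines. Under flow, Ccn2 at 2.91, Ccn1 at 1.95 and Ankrd1 at 1.27 stand to the right of the 1.5-fold line, while all 10 values with Ift88 siRNA lie between -0.15 and 0.23.

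The promoters of the targets are shown here because TEAD factors recognise the hexamer GGAATG, and they allow the motif to be set beside the response. Of the 10 genes, 8 had a promoter in the RefSeq table for GRCm38.p6, with 250 bases before and 50 after each annotated start, and Ccn2 and Tead1 had none. The 250 bases before the start of Ccn1 and Ankrd1 follow on the strand of the gene, with the motif in capitals (GGAATG, or CATTCC where it lies on the opposite strand). That of Ccn1 is chr3:145649986-145650235 and that of Ankrd1 is chr19:36119845-36120094, both on the minus strand. The Ankrd1 stretch lies inside the GENCODE gene interval given above, since the RefSeq start used here is not the outermost GENCODE start. The same holds for the promoters of Amotl2 and Lats2.
Ccn1: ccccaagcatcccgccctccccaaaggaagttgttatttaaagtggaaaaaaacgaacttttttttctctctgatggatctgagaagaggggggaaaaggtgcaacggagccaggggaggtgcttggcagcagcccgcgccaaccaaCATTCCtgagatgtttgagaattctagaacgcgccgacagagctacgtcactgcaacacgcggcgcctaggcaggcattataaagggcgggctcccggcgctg
Ankrd1: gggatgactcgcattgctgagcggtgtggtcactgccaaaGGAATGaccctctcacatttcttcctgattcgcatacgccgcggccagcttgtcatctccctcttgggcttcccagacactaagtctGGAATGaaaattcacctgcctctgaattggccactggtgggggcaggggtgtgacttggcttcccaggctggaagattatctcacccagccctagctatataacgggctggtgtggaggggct
Ccn1 held 1 copy, from -103 to -98 counted from the start at 0, on the opposite strand. Ankrd1 held 2 copies, from -210 to -205 and from -123 to -118, on the strand of the gene.

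Copies of the motif were not limited to the genes that rose. In the 8 genes with a promoter, 7 held at least 1 copy on either strand within the 300 bases, and Tead2 held none. Each copy is given with 10 bases on either side, read on the strand that carries GGAATG, so that the flanks can be compared.
Ccn1 (chr3:145650073-145650098, plus strand): aaacatctcaGGAATGttggttggcg
Ankrd1 distal (chr19:36120039-36120064, minus strand): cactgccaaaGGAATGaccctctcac
Ankrd1 proximal (chr19:36119952-36119977, minus strand): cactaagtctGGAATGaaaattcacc
Amotl2 (chr9:102717729-102717754, minus strand): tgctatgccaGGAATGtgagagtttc
Lats2 (chr14:57746104-57746129, minus strand): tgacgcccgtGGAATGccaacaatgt
Ajuba distal (chr14:54577832-54577857, plus strand): ggggcactgtGGAATGtatccatcaa
Ajuba proximal (chr14:54577810-54577835, plus strand): gtttacagttGGAATGcgcggagggg
Yap1 (chr9:8004722-8004747, minus strand): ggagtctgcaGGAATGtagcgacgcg
Wwtr1 (chr3:57576031-57576056, minus strand): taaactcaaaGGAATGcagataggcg
GGAATG was present on either strand in 14.7% of all 32851 promoters listed. By gene, the share was 16.6% of all 27025 genes with a promoter and 14.1% of the 9143 with a promoter among the genes tested under flow. Of the 68 genes called higher under flow with the replicate block 48 had a promoter, Ccn1 and Ankrd1 among them, and 15 (31.2%) held the motif. Shares were similar in the wider lists described below, whose genes were mostly not called. There 7 of 21 other Hippo genes with a promoter (33.3%) and 3 of 11 other targets (27.3%) held it. None of the 8 genes held a match in these windows to the AP-1 motif TGANTCA, found in 7.81% of all promoters on either strand, or to the CArG box of serum response factor, found in 1.63%. Yap1 and Wwtr1, which were not called, held the motif as Ccn1 and Ankrd1 did. A match of letters is no evidence of binding, and enhancers were not searched.

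The feedback genes Amotl2 and Lats2 were not called in either fit. Their log2 differences were smaller than those of Ccn1, Ccn2 and Ankrd1, a contrast that was not tested. Amotl2 (chr9:102716672-102733418, plus strand), whose product anchors YAP at the junctions, was at 157, 80.2, 123, 150, 207 and 195 TPM in flow replicates 1 to 6. In static cells it was at 81.6, 91.1, 91.4, 127, 145 and 113 TPM. The groups overlapped, and 5 of 6 pairs were higher under flow, pair 2 being the exception. The log2 difference was 0.45 (SE 0.21, unadjusted p in limma 0.0466, adjusted p 0.998), and with the block the unadjusted p was 0.00303 and the adjusted p 0.186, so it was not called in either fit.

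Lats2 (chr14:57689662-57758388, minus strand), the kinase that phosphorylates YAP and TAZ, was expressed at a lower level. It ranged from 15.7 to 25.6 TPM under flow, median 22.9, and from 16.2 to 19.1 TPM in static cells, median 17.7. The flow library below all static ones was again replicate 2, and the other 5 were above the whole static range. The log2 difference was 0.30 (SE 0.11, unadjusted p in limma 0.0152, adjusted p 0.998, and 0.273 with the block). Without flow replicate 2 the adjusted p was 0.0358 at a log2 difference of 0.39, which is under the 1.5-fold threshold.

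Ajuba (chr14:54567472-54577558, minus strand) encodes a LIM-domain protein that binds and inhibits LATS kinases at tense junctions. It ranged from 31.3 to 52.8 TPM under flow, median 47.7, and from 43.1 to 60.4 TPM in static cells, median 50.6. The log2 difference was -0.16 (SE 0.12, 95% interval -0.42 to 0.10, adjusted p in limma 0.998), with 2 of 6 pairs higher under flow. The 3 pairs of replicates 4 to 6 were all lower under flow, with log2 differences between -0.32 and -0.18, while pairs 1 to 3 went in both directions.

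The upstream pathway gave no call in the flow experiment. A list of 26 other Hippo genes held the kinases Stk3, Stk4 and Lats1, their scaffolds Sav1, Mob1a, Mob1b, Nf2 and Wwc1, and further TEAD cofactors, and 24 of them were tested (Fat4 and Dchs1 were below 1 TPM). None was called by limma in either fit, against 0.105% of all genes tested called higher without the block and 0.597% with it. An unadjusted p under 0.05 was found for 3 without the block and 4 with it, all higher under flow. Over all genes tested the shares were 3.85% and 11.1% in the respective fits. The median log2 difference of the 24 was 0.04, and that of all genes tested was -0.03. The lowest was Tead3 at -0.10 (11.2 ± 2.51 TPM with flow, 12.03 ± 2.71 TPM without it, SD, n = 6 each). The highest was Vgll3, a TEAD cofactor of the vestigial-like family, at 0.43 (49.3 ± 13.2 and 35.2 ± 3.88 TPM), with an adjusted p in limma of 0.998, and of 0.286 with the block. Vgll3 was called in the fit without flow replicate 2, and Vgll3 and Vgll4 in replicates 4 to 6 with the block.

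Most other genes known as YAP/TAZ targets were not called. Of 17 such genes 15 were tested (Igfbp3 and Foxf2 were below 1 TPM), 0 were called by limma without the block, against 0.105% of all genes called higher, and 2 had an unadjusted p under 0.05, against 3.85% of all genes. By log2 difference 11 were higher and 4 lower, with a median of 0.06. The lowest was Nt5e, an ecto-nucleotidase, at -0.21 (2.33 ± 1.38 and 2.72 ± 0.83 TPM). With the block 1 of the 15 was called higher, against 0.597% of all genes tested. It was F3, which encodes tissue factor, the initiator of coagulation. F3 was at 164, 90.8, 143, 209, 508 and 670 TPM in flow replicates 1 to 6. In static cells it lay between 58.5 and 74.2 TPM. All flow libraries were above all static libraries, and the log2 fold change was 1.81 (SE 0.39, adjusted p in limma 0.105, and 0.0426 with the block, where it was called). The ratio of the F3 means was 1.89 in replicates 1 to 3 and 7.66 in replicates 4 to 6. The blocked call of F3 was lost when any pair other than pair 2 was left out, and with median-of-ratios scaling. Without a block F3 was called with library weights (adjusted p in limma 0.00609), without flow replicate 2 (0.00931) and in replicates 4 to 6 alone (0.0243). Tgfb2, which encodes a TGF-beta ligand, had a log2 difference of 0.62 (adjusted p in limma 0.835, and 0.121 with the block) and was called with library weights (0.0398) and without flow replicate 2 (0.0483).

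**Figure D3:**
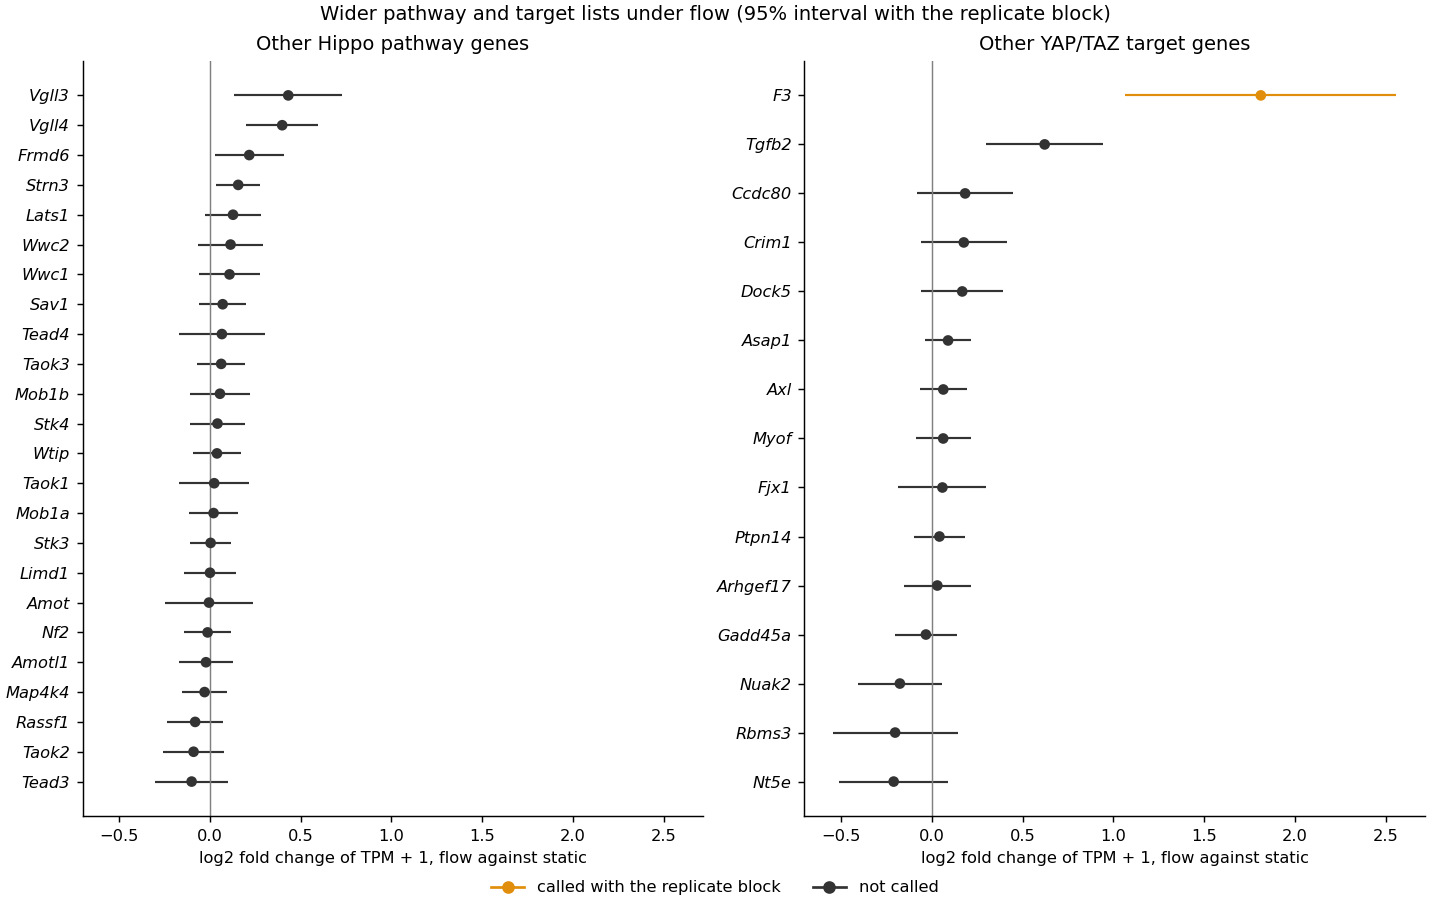
Log2 fold change under flow for the tested genes of the wider Hippo list (left, 24 genes) and of the wider target list (right, 15 genes), with 95% intervals from the fit with the replicate block. F3, in orange, is the gene called with the block, at 1.81, and the other 38 points lie between -0.21 and 0.62, the latter being Tgfb2.

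Relatives of the targets were mostly silent. Of the other 4 Ccn genes on the list, Ccn4 was expressed, with 45.6 ± 13.7 TPM under flow against 36.2 ± 6.47 TPM without it (SD, n = 6 each), with a log2 difference of 0.28 that was not called (adjusted p in limma 0.998). Ccn3, Ccn5 and Ccn6 averaged under 1 TPM in both groups. Of the ankyrin-repeat relatives of Ankrd1, Ankrd2 was under 1 TPM and Ankrd23 averaged 1.48 ± 0.34 TPM with flow and 1.19 ± 0.64 TPM without it. Ccn1 and Ccn2 therefore made up nearly all Ccn mRNA of these cells together with Ccn4.

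The genes whose changes ran closest to each target over the 6 pairs were found by the root mean square difference of the within-pair log2 changes, as a description. For Ccn1 they were Ier2 (0.256), Csrnp1 (0.284) and Dusp1 (0.335), which are immediate early genes. For Ankrd1 they were Gadd45g (0.208), Plk2 (0.208) and Thbs1 (0.229), the last of which encodes the matricellular protein thrombospondin. For Ccn2 the nearest were farther away, at 0.640 for Arc, 0.656 for Dusp5 and 0.767 for Phlda1. The smallest change of all 9 was in pair 2, as it was for Ccn1, Ccn2 and Ankrd1.

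**Figure D4:**
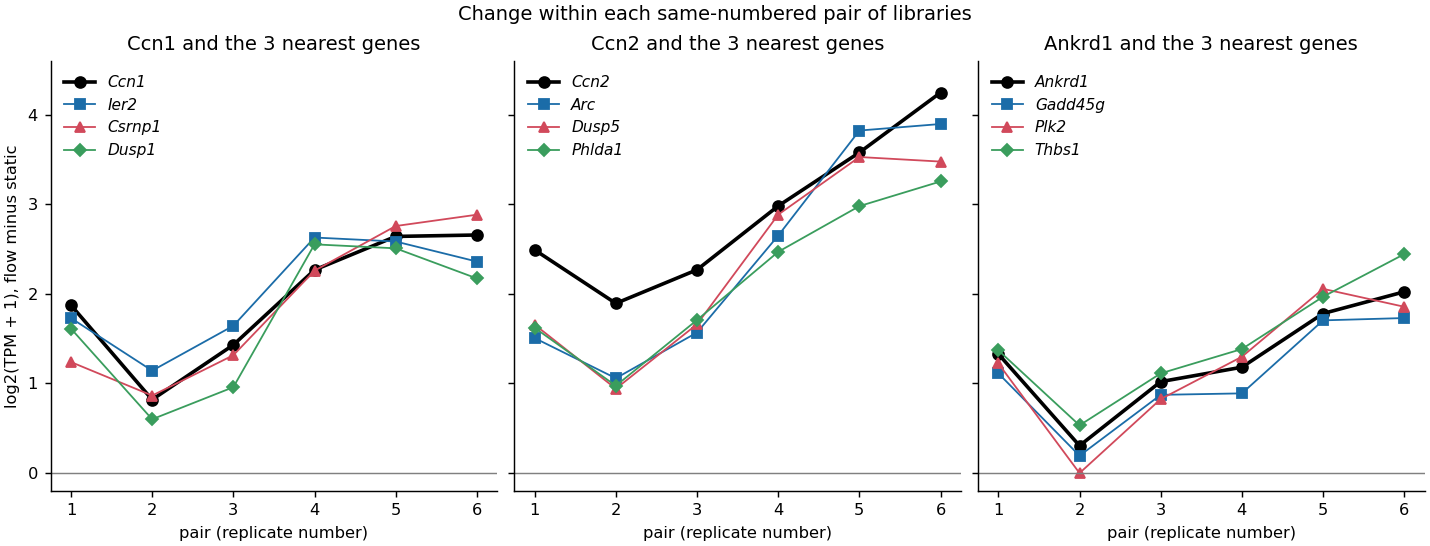
Change in log2(TPM + 1), flow minus static, in each of the 6 same-numbered pairs for Ccn1, Ccn2 and Ankrd1 (black) and the 3 genes nearest to each. Every curve dips at pair 2 (1.89 for Ccn2, 0.82 for Ccn1, 0.30 for Ankrd1), and Ccn2 lies above its 3 nearest genes in every pair but pair 5.

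In the siRNA experiment the silencing was checked first. Replicates 1 to 4 held 1.71, 1.27, 1.28 and 0.92 TPM of Ift88 after Ift88 siRNA, against 4.21, 4.08, 4.15 and 4.12 TPM after control siRNA. The remaining level was 31.3% of the control (adjusted p in limma 0.00212). Of the 10 genes 0 were called by limma in either direction, against 0.223% of all 11209 genes tested, and 1 of the 10 (Ankrd1) had an unadjusted p under 0.05, against 13.9% of all genes tested.

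The targets were abundant in both siRNA groups. Ccn2 was at 239, 209, 237 and 206 TPM in the 4 Ift88 siRNA libraries, against 230, 210, 235 and 215 TPM in the controls. Both groups covered the same range, and the log2 difference was 0.00 (SE 0.07, 95% interval -0.14 to 0.15, adjusted p in limma 0.997). The study reports changed Ccn2 expression after Ciliobrevin D, a drug used to block cilia formation, which these libraries do not cover. Ccn1 was at 1731, 1707, 1730 and 1600 TPM in the 4 Ift88 siRNA libraries, against 1626, 1690, 1379 and 1598 TPM in the controls. The groups overlapped, with a log2 difference of 0.11 (interval -0.04 to 0.25, adjusted p in limma 0.500). Ankrd1 was at 1972, 1644, 1645 and 1497 TPM in the 4 Ift88 siRNA libraries, against 1345, 1529, 1314 and 1554 TPM in the controls. Its Ift88 siRNA values were mostly the higher ones, with an overlap through replicate 4, and the log2 difference was 0.23 (SE 0.09, interval 0.05 to 0.42, unadjusted p in limma 0.0184, adjusted p 0.261).

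Among the 10 genes only 1, the coactivator gene Wwtr1, had siRNA groups that did not overlap. This is near the share over all genes tested, 8.58% in either direction. It was at 53.4, 52.7, 52.6 and 43.9 TPM with Ift88 siRNA and at 62.3, 54.0, 55.9 and 53.6 TPM with control siRNA. All 4 Ift88 siRNA values lay below all 4 control values, the closest being 53.4 and 53.6 TPM. The log2 difference of -0.15 (SE 0.08, adjusted p in limma 0.421) was not called. Yap1 averaged 14.2 ± 0.82 TPM after Ift88 siRNA, against 14.3 ± 0.71 TPM in the controls (SD, n = 4 each), a log2 difference of -0.01 (interval -0.21 to 0.18). The Wwtr1 to Yap1 ratio was 3.57 ± 0.17 with Ift88 siRNA and 3.95 ± 0.38 with control siRNA (SD, n = 4 each). In the flow experiment, which was a separate one, the ratio was 1.33 under flow and 1.29 in static cells.

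The other 5 genes gave no call with Ift88 siRNA. Tead1 averaged 9.96 ± 1.78 TPM after Ift88 siRNA against 10.8 ± 1.66 TPM in the controls, and Tead2 at 36.4 ± 3.70 and 36.4 ± 2.64 TPM (SD, n = 4 each). Amotl2 was at 90.4 ± 10.5 and 82.2 ± 3.28 TPM, and Ajuba at 16.7 ± 3.12 and 14.6 ± 2.90 TPM, in the same order. Lats2 averaged 37.4 ± 3.11 TPM after Ift88 siRNA against 37.6 TPM in the controls (SD 11.99), and the control libraries fell apart into 44.0 and 51.3 TPM for replicates 1 and 3 against 28.3 and 26.9 TPM for replicates 2 and 4. Of the wider lists, 24 Hippo genes and 16 targets were tested by limma and 0 were called (4 and 3 had an unadjusted p under 0.05, against 13.9% of all genes tested), with log2 differences from -0.32 (Strn3) to 0.31 (Tead4) and from -0.36 (Foxf2) to 0.25 (Gadd45a).

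**Figure D5:**
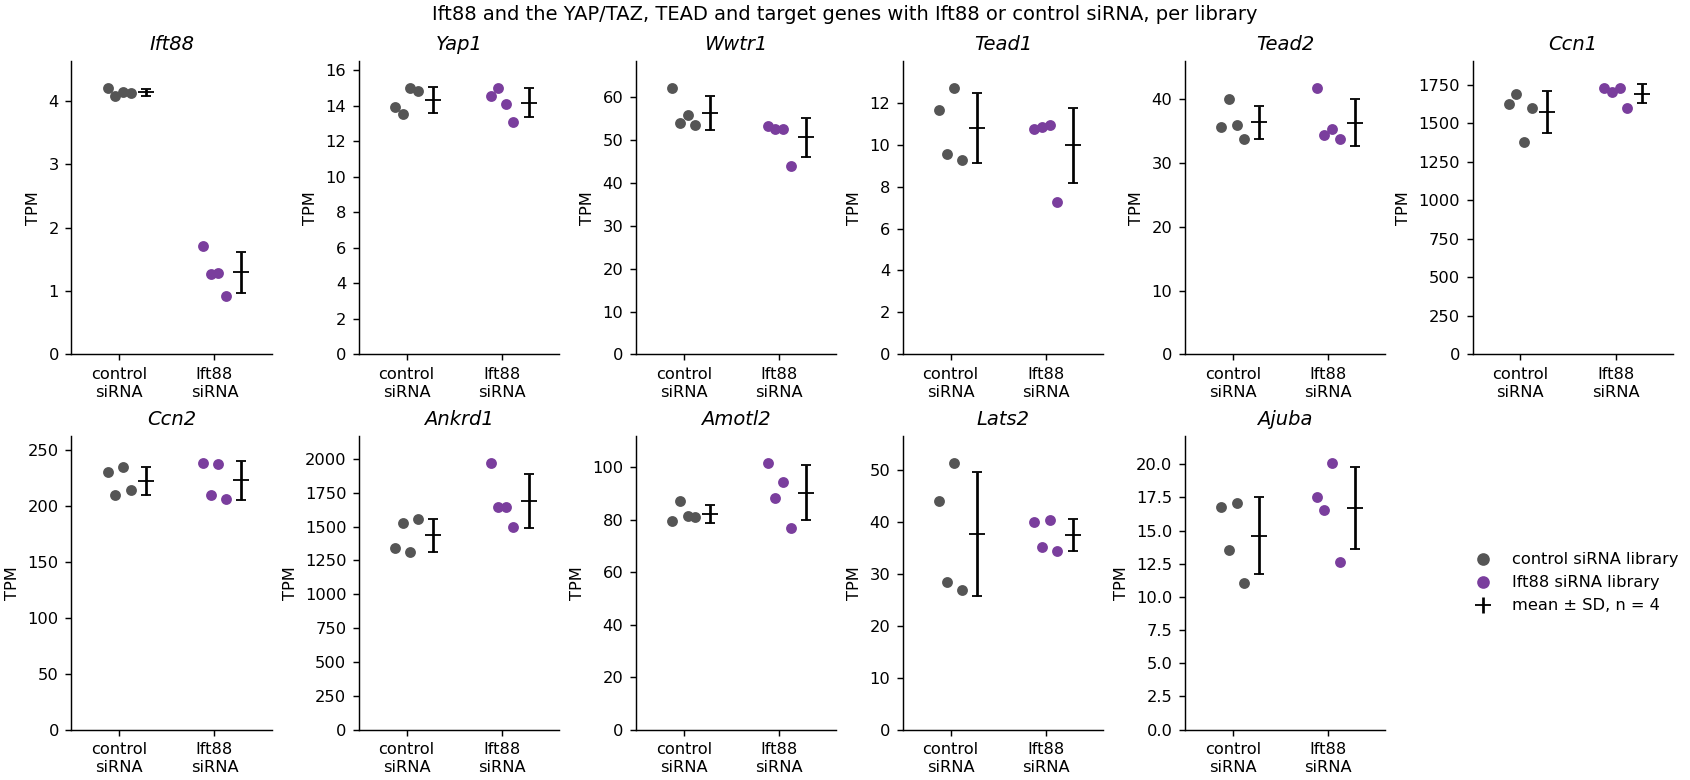
TPM of Ift88 and of the 10 genes in each of the 4 control siRNA and 4 Ift88 siRNA libraries, with the mean ± SD of 4 beside the points. Ift88 falls from about 4.14 to 1.30 TPM, whereas the points of the 10 genes overlap between the groups except for Wwtr1, whose highest Ift88 siRNA library (53.4 TPM) lies just under its lowest control library (53.6 TPM). Over all genes tested, 8.58% had groups that did not overlap.

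Levels of Ccn1 and Ankrd1 in the siRNA experiment were nearer to those of flow than of static cells of the other table. That of Ccn2 lay between the means of flow and static cells. Ccn1 averaged 1573 TPM with control siRNA, against 1644 TPM with flow and 385 TPM without, and Ankrd1 averaged 1436, 1387 and 515 TPM. Ccn2 averaged 222, 479 and 61.1 TPM in the same order. The tables were normalised separately and come from separate experiments, so no test was made between them.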

How the data were processed

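RNA-seq of DC2 cells was analysed in 12 libraries of the flow experiment (6 flow, 6 static) and 8 libraries of the siRNA experiment (4 Ift88 siRNA, 4 control siRNA), grouped by their titles. The authors deposited TPM, 1 table per experiment, after assigning poly(A)-selected directional read pairs to the Ensembl mouse transcriptome with kallisto 0.46.2 and summarising transcripts to genes. The submitters' processing notes name fastp 0.20.0 for trimming, whereas the study's methods name Trimmomatic. The TPM sum to 1000000 in each library. They hold no counts, so the depth and the counting error are unknown and no count test was run. Paralogs share reads that kallisto divides by estimation.

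From the deposited TPM, log2(TPM + 1) was tested with limma 3.58.1 in R 4.3.3 (lmFit, eBayes with trend) for the genes that averaged 1 TPM or more in a table. P-values were adjusted by Benjamini-Hochberg over all genes tested, with a call at an adjusted p under 0.05 and more than 1.5-fold. Fold changes on this scale understate those of low genes. The fit was tested on simulated data. Each experiment was fitted alone. The study's methods name no pairing, so the fit without a block stands first. Deviations from the group mean were correlated, across genes, between the flow and the static library of each number. The coefficients were 0.294, 0.463, 0.425, 0.468, 0.662 and 0.600 (replicates 1 to 6), all above 0.1, and the numbers were treated as pairs. For 5 of the 6 numbers the flow library's best partner was the static library of that number, replicate 3 being the exception. Part of each correlation can come from the split between replicates 1 to 3 and 4 to 6, which both groups share. The coefficients alone therefore do not show pairing number by number. The labels do not say that replicates were separate cultures, so p-values measure the spread between libraries, which may be technical.

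The 10 genes, the wider lists and the tests were chosen with earlier results of these data known. Named genes are all 10, those of the wider lists called in either fit or at the ends of the list, relatives of the targets, and the 3 genes nearest to each target. Of the rows, 78 had no symbol. No column of samples was left unused. Positions are from GENCODE M21 on GRCm38 and promoters from RefSeq on GRCm38.p6. Both differ from the annotation the authors used, and nothing was converted. All other steps and the figures were made in Python 3.11.15 (matplotlib 3.10.9, pandas 2.3.3, numpy 2.4.6).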

Additional observations from a re-analysis of the deposited data

Results flagged for a closer look

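In the 40 sets of libraries examined (10 genes in 4 groups), 2 had a library far from the others of its group by Dixon's criterion, and chance gives about 1 such set in 20. Both were in Ift88 siRNA replicate 4. Wwtr1 was at 43.9 TPM there, with the nearest of the other 3 libraries at 52.6 TPM, and Tead1 was at 7.28 TPM, with the nearest at 10.7 TPM. Without that library the log2 difference of Tead1 turned from -0.11 to 0.02. The cause was not tested.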

How the results depend on the processing

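Ccn1 and Ccn2 were called under flow in all 12 fits that left out a library, at log2 fold changes of 1.79 to 2.20 and 2.76 to 3.10. The 2 calls fell to 1 (Ccn2) with no filter on low TPM, where Ccn1 had an adjusted p in limma of 0.0760, to 0 with the library of conflicting labels counted as static and to 0 in replicates 1 to 3 without a block. All genes called were 12 higher without and 68 higher with the replicate block, 2 with no filter, 28 with median-of-ratios scaling, 75 higher and 11 lower with library weights, and 76 higher and 11 lower without flow replicate 2. The 3 calls with the replicate block ranged from 1 to 3 when a pair was left out (chosen after seeing the data). Without pair 1 only Ccn2 was kept, Ccn1 having an adjusted p of 0.0550 and Ankrd1 of 0.106. In the siRNA experiment 0 of the 10 genes were called under every alternative, replicate block included. There the correlations of same-numbered libraries were 0.0464, 0.00276, 0.259 and 0.176, so the numbers were not taken as pairs. The block moved the calls over all genes from 25 to 44, and 2 of the 4 numbers had their best partner in the same number. The differences between Ccn2 and Ccn1, Ccn2 and Ankrd1, and Ccn1 and Ankrd1 were 0.837 to 1.03, 1.52 to 1.73 and 0.593 to 0.728 with a pair left out, each at an adjusted exact p of 0.0625, the smallest 5 pairs can reach after adjustment.

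Log2 differences near 0 changed sign, none being called. With Ift88 siRNA, Ccn2 was -0.0221 under median-of-ratios scaling with or without the replicate block and -0.0039 with library weights, and -0.0330 to 0.0375 with a library left out. Yap1 was 0.0297 with library weights and -0.0662 to 0.0370 with a library or pair left out. Lats2 was -0.0997 to 0.204, Tead1 -0.203 to 0.0180 and Tead2 -0.0790 to 0.0668 with a library or pair left out. Under flow, Yap1 was -0.0119 with library weights and -0.0296 to 0.0451 with a library left out. Wwtr1 was -0.0102 with the conflicting library as static and -0.0076 to 0.113 with a library left out. Tead2 was 0.0800 with that library as static and 0.0355 in replicates 1 to 3, with or without the replicate block. Of 470 alternatives for single genes 413 kept direction and call, 39 changed sign, 12 gained and 6 lost a call. The causes were not tested. The smallest changes that could be called were not determined.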
